A study of Mus musculus with 36 samples.

Results

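Paired box (Pax) genes encode transcription factors that bind DNA through the paired domain and set up organs and territories of the embryo. The Pax genes other than Pax6 were examined here, that is Pax1, Pax2, Pax3, Pax4, Pax5, Pax7, Pax8 and Pax9, taken by name as 8 of the 21938 protein-coding genes of the annotation. Pax1 and Pax9 act in the sclerotome, the source of the vertebrae, and Pax9 also in tooth and palate. Pax2, Pax5 and Pax8 share a subfamily: Pax2 acts in midbrain-hindbrain boundary, kidney, eye and ear, Pax5 in the same boundary and in B cells, and Pax8 in thyroid and kidney. Pax3 and Pax7 act in dorsal neural tube, neural crest and muscle progenitors, and Pax4 in the insulin-producing lineage of the pancreas. Pax6, the member of the family that cortical progenitors use, served as a reference.

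Such developmental regulators are classic targets of Polycomb repression. PRC1 ubiquitylates histone H2A (H2AK119ub1), PRC2 trimethylates histone H3 (H3K27me3), and each complex can recognise the other's mark. KDM2B is the subunit of a variant PRC1 that binds unmethylated CpG-rich DNA through its CxxC zinc finger, and its long isoform also has demethylase activity towards H3K36me2, a mark that is usually found outside Polycomb domains. The comparison of genotypes asked whether these marks at the Pax genes differed when the zinc finger was removed.

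The 3 marks were profiled by chromatin immunoprecipitation sequencing (ChIP-seq) in hippocampus of mice at postnatal day 0 and in neurospheres, floating cultures of neural progenitors that were grown from hippocampi of that age. Control (Ctrl) mice were Kdm2bfl/+ or Kdm2bfl/fl and kept the zinc finger, whereas in conditional knockout (cKO) mice (Kdm2bEmx1-delta-CxxC) the exon that encodes it was deleted by Emx1-Cre. Emx1-Cre acts in the lineage of the dorsal telencephalon, so vessels, microglia and other cells from outside this lineage kept the domain in the hippocampus. Each mark, source and genotype had 2 libraries, 24 in all. The labels do not say whether libraries came from separate animals or cultures, so p-values cover the spread between these libraries, which may be partly technical. The authors called islands, broad stretches with more reads than the input, in each library. An island carries a raw count of reads, and a place without an island has an unknown count. All values below are from bulk material, in which fewer marked cells and less mark per cell cannot be told apart.

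Counts in islands ranged from 987329 to 22021439 per library, and these totals move with the called length. In hippocampal H2AK119ub1 both replicates 1 had a small called length, with 45.7 Mb (Ctrl) and 37.3 Mb (cKO) in islands against 157 Mb and 247 Mb in replicates 2. The reason was not tested. Hippocampal H3K27me3 Ctrl replicate 2 covered 54.9 Mb against 122 to 160.0 Mb in the other libraries of its group. In neurosphere H3K27me3 the density over all islands was 60.2 and 52.3 counts per kb in Ctrl against 43.2 and 42.0 in cKO, and cKO replicate 2 had fewer and wider islands (median width 5.4 kb against 2.2 to 3.6 kb). Islands do not show the deleted exon and could not check the genotype. Among dorsal telencephalon and progenitor markers, Sox2 and Zbtb20 had no H3K27me3 at the promoter in any library of either source, and Emx2 had none in neurospheres, whereas Emx1 and Tbr1 had it in all 4 neurosphere libraries. Olig1 and Olig2, markers of the oligodendrocyte lineage, had promoter H3K27me3 in all 4 hippocampal libraries and in no neurosphere library. In the same lineage, Pdgfra had it in all 4 libraries of each source, and Sox10 in all 4 hippocampal and in some neurosphere libraries. Of 5 microglia and blood markers, 4 lacked promoter H3K27me3 in every hippocampal library, and 2 in every neurosphere library. Any part of these cells in the results was not tested.

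All 8 Pax genes lay under Polycomb marks, and promoters of 7 were free of H3K36me2. The promoter was taken as the 2 kb on each side of the transcription start site (TSS), and an overlap of 1 bp counted as an island. With 8 genes and 4 libraries there were 32 cases for each mark and source. H3K27me3 islands reached the promoter in 31 of 32 cases in hippocampus and in 31 in neurospheres, and covered it fully in 28 and 25. H2AK119ub1 did so in 29 and 27 cases, with 13 and 23 fully covered. H3K36me2 was at a Pax promoter in 0 cases in hippocampus and in 3 in neurospheres, all at Pax8. An H3K27me3 island in all 4 libraries was found at 7 members in each source, against 8.36% of all genes in hippocampus and 15.5% in neurospheres. For H2AK119ub1 it was 6 members in each source, against 1.59% and 6.72%. Hippocampal H2AK119ub1 covered more of the gene span in both replicates 2 than in both replicates 1 at all 8 members, in Ctrl and cKO alike.

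**Figure D1:**
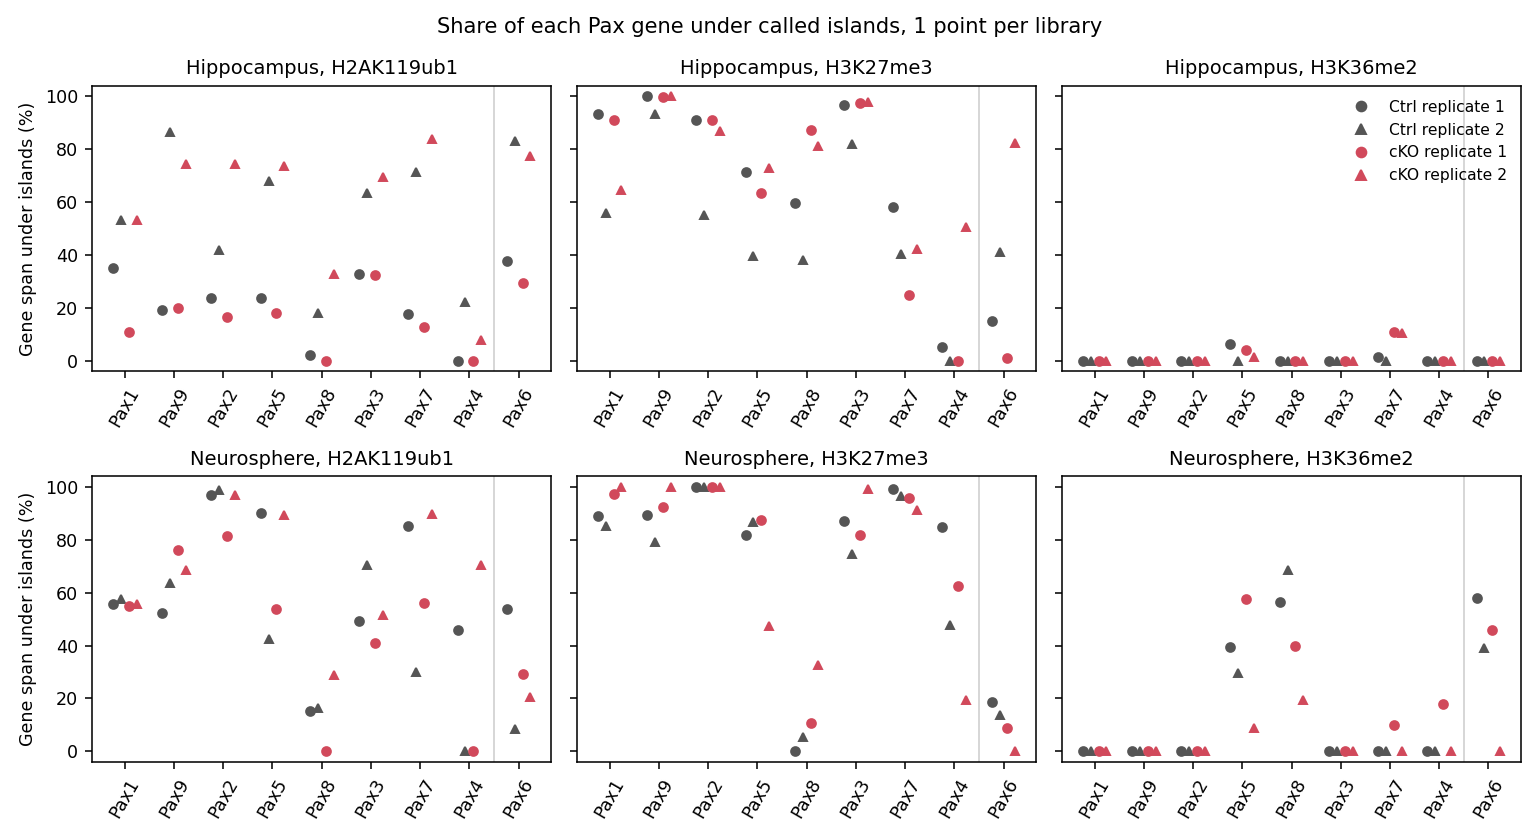
Share of the annotated gene span inside islands (percent) for the 8 Pax genes and Pax6 in every library, with panels by mark and source and points for single Ctrl and cKO libraries. H3K27me3 covered 100% of Pax2 in all 4 neurosphere libraries, while H3K36me2 was absent from Pax1, Pax2, Pax3 and Pax9 in all 8 libraries of that mark.

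Sequences of the 250 bases before the RefSeq start are shown for Pax2, Pax5 and Pax8, since these genes of a single subfamily differ in CpG content, the feature that the zinc finger binds, and in their marks. They are in RefSeq's build GRCm38.p6, the assembly that mm10 is made from, and read 5′ to 3′ on the strand of the gene with each CpG in capitals. Pax2 is at chr19:44755502-44755751 on the plus strand, Pax5 at chr4:44710695-44710944 and Pax8 at chr2:24475600-24475849, both on the minus strand. RefSeq lists 3 starts for Pax2, and the one nearest to the annotated TSS is shown. With the 50 bases past the start, its window of 300 bases holds 23 CpG, and those of the other starts hold 7 and 30.
Pax2: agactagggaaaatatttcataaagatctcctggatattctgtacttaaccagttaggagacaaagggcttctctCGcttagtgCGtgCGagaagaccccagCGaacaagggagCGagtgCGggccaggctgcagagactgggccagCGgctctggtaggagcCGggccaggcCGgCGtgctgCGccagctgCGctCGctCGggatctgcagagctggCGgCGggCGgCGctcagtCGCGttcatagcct
Pax5: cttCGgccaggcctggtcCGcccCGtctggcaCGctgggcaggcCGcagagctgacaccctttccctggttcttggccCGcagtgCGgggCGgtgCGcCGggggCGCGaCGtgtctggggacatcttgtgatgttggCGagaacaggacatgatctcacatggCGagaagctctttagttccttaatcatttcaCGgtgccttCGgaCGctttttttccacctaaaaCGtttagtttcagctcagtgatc
Pax8: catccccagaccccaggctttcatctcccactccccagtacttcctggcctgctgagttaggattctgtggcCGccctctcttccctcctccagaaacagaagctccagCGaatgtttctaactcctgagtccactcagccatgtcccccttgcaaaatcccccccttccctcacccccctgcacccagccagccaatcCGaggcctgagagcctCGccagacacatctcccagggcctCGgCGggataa
The Pax2 stretch holds 20 CpG and the Pax5 stretch 19, and 17.9% and 19.7% of 32851 RefSeq stretches of this length hold as many. The Pax8 stretch holds 6, the median of all stretches. H3K27me3 covered the Pax2 and Pax5 stretches fully in all 8 libraries of the mark and the Pax8 stretch in 7 of 8. H3K36me2 covered the Pax8 stretch fully in 3 neurosphere libraries and the other stretches in none. RefSeq promoter sequences were matched for 6 of the 8 genes, with Pax3 and Pax4 as the others.

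Over 1 kb around the annotated TSS, the number of CpG was 71 in Pax2, 57 in Pax3, 57 in Pax7, 50 in Pax9, 41 in Pax1, 37 in Pax5, 18 in Pax8 and 3 in Pax4, with a median of 41 over all genes. Pax1, Pax2, Pax3, Pax7 and Pax9 counted as CpG-rich (GC above 50% with a CpG ratio, observed over expected, above 0.6), as did 44.3% of all genes. Pax4 and Pax8, the members with fewest CpG, were also those with the least complete promoter coverage by H3K27me3 in neurospheres, while in hippocampus the Pax8 promoter was covered fully in all 4 libraries.

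Pax2 (chr19:44756045-44837871, plus strand) had the widest H3K27me3 island of the family in neurospheres. Islands at its promoter summed to 45.4 and 40.6 kb in hippocampus Ctrl and 47.8 and 48.2 kb in cKO. In neurospheres they summed to 264.8 and 223.2 kb in Ctrl against 153.2 and 263 kb in cKO, so the sources did not overlap (45.5 ± 3.49 kb against 226 ± 52.2 kb, SD, n = 4 each). Among 3401 genes with a promoter island in all 4 neurosphere libraries, 21 had a wider mean (median of all genes 13.95 kb). In hippocampus it was 86 of 1833 genes (median 8.7 kb). H3K27me3 islands were more extensive in neurospheres in general, with 268 to 321 Mb per library against 54.9 to 160.0 Mb in hippocampus. The share of all genes without overlap between sources was not counted, here or for the genes below. The downstream edge lay 89.6 to 90.0 kb past the TSS in all 4 neurosphere libraries, whereas the upstream edge lay 63.6 kb out in cKO replicate 1 and 133 to 175 kb out in the others. Over the joint stretch of 265.4 kb made by merging the islands of the 4 libraries, called length was 264.8 and 263.8 kb in Ctrl against 262.6 and 263 kb in cKO, so cKO replicate 1 was marked over almost the whole stretch, in separate islands. With both sources merged, over 322.6 kb, called length was 276.4 and 192.6 kb in hippocampus Ctrl and 279.4 and 282.6 kb in cKO. In neurospheres it was 309 to 319.4 kb. Most hippocampal H3K27me3 there thus lay in islands apart from the promoter. The gene span was covered over 55.0% to 91.2% in hippocampus and 100% in neurospheres. H2AK119ub1 covered 97.1% and 99.0% of the gene span in neurosphere Ctrl and 81.4% and 96.8% in cKO. In hippocampus it covered 23.6% and 41.8% in Ctrl and 16.6% and 74.6% in cKO, lower than in any neurosphere library.

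**Figure D2:**
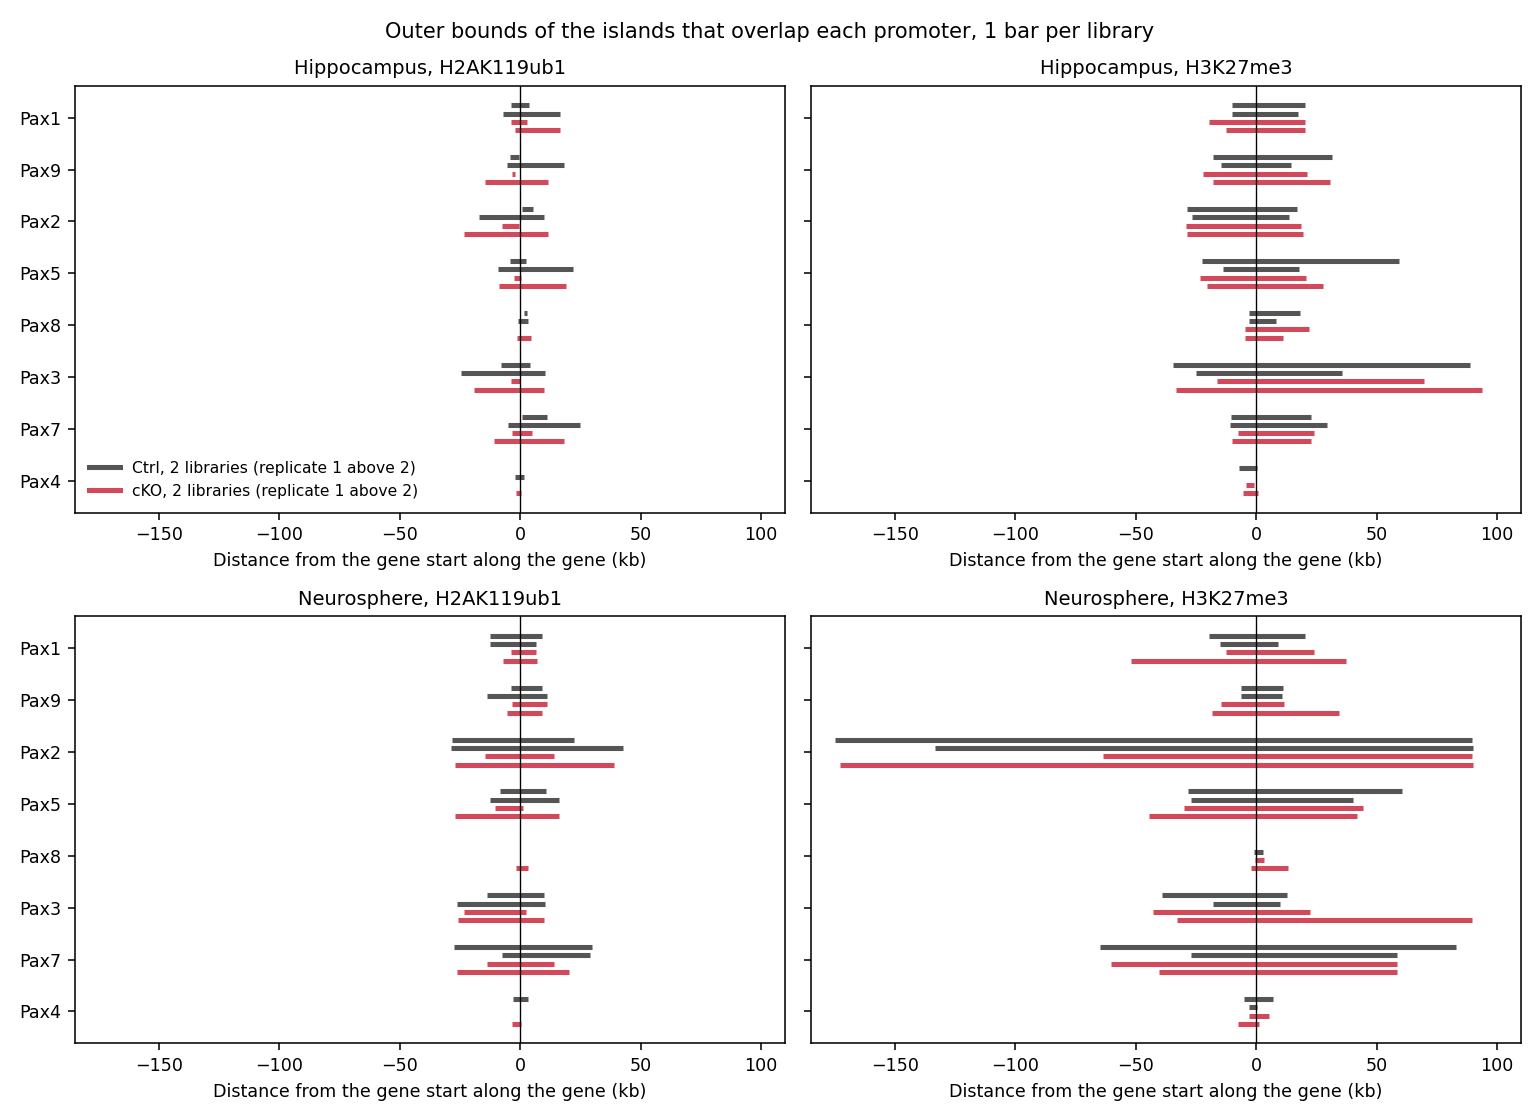
Outer bounds of the islands that overlap each Pax promoter, as distance from the gene start along the gene (kb, negative upstream), for H2AK119ub1 and H3K27me3 in each source, 1 bar per Ctrl or cKO library. The Pax2 H3K27me3 islands at the promoter sum to 153.2 to 264.8 kb in neurospheres and 40.6 to 48.2 kb in hippocampus. Islands apart from the promoter are not drawn.

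Pax5 (chr4:44524757-44710487, minus strand) carried Polycomb marks at the promoter and H3K36me2 inside the gene, away from the promoter. H3K27me3 covered 82.0% and 87.0% of the span in neurosphere Ctrl and 87.6% and 47.4% in cKO, and 71.5% and 39.6% in hippocampus Ctrl and 63.5% and 73.0% in cKO. Both sources overlapped, and 1 cKO library of neurospheres was far below the other. H3K36me2 covered 73.4 and 54.8 kb of the span in neurosphere Ctrl and 106.8 and 16.2 kb in cKO. The first H3K36me2 island began 64.5 and 104.7 kb past the TSS in Ctrl and 35.3 and 60.3 kb past it in cKO. In hippocampus H3K36me2 took up 11.4 and 0 kb of the span in Ctrl against 7.2 and 2.8 kb in cKO. In neurospheres a median of 61.1% (0% to 88.2% over 16 pairs of libraries) of the H3K36me2 length on Pax5 also lay under H3K27me3. In hippocampus it was 11.1% (0% to 100% over 12 pairs). Over all H3K36me2 islands the share was 7.95% (2.02% to 18.1%) in neurospheres and 1.95% (0.407% to 4.44%) in hippocampus. H3K27me3 covered a mean of 76.0% of the whole Pax5 span in neurospheres and 61.9% in hippocampus.

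Pax8 (chr2:24420560-24475599, minus strand) differed between sources in both H3K27me3 and H3K36me2. H3K27me3 covered 59.7% and 38.2% of its span in hippocampus Ctrl and 87.3% and 81.1% in cKO. In neurospheres 0% and 5.45% were covered in Ctrl against 10.5% and 32.7% in cKO, below every hippocampal library. H3K36me2 covered 56.7% and 68.7% of the span in neurosphere Ctrl and 40.0% and 19.3% in cKO, and 0% in all 4 hippocampal libraries. At the promoter, H3K36me2 covered 100% in both neurosphere Ctrl libraries, 95.0% in cKO replicate 1 and 0% in cKO replicate 2. Of the neurosphere H3K36me2 libraries, cKO replicate 2 had the fewest counts in islands. The covered share of the span was higher in cKO than in Ctrl for H3K27me3 in both sources, without overlap, as for 18.9% of genes in hippocampus and 15.1% in neurospheres. The lower hippocampal Ctrl value came from the library with 54.9 Mb in islands, and counts of the hippocampal promoter region did not pass the test (log2 fold change -0.13, edgeR FDR = 0.994). For H3K36me2 the share was lower in neurosphere cKO without overlap, as for 6.51% of genes.

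Pax3 and Pax7, which mark dorsal neural tube and muscle progenitors, had promoters fully under H3K27me3 in all 8 libraries of the mark. Pax7 (chr4:139737062-139833528, minus strand) was the more different between sources, with 58.0% and 40.4% of the span covered in hippocampus Ctrl, 24.8% and 42.4% in cKO, 99.2% and 96.7% in neurosphere Ctrl and 95.7% and 91.3% in cKO. Its promoter islands summed to 34.6 ± 4.12 kb in hippocampus and 112.7 ± 27.05 kb in neurospheres (SD, n = 4 each), without overlap. Pax3 (chr1:78101267-78197134, minus strand) was covered over 96.9% and 81.9% in hippocampus Ctrl and 97.6% and 98.0% in cKO, and over 87.3% and 74.8% in neurosphere Ctrl and 81.7% and 99.2% in cKO. Its promoter islands overlapped between sources (mean 99.3 kb in hippocampus, 66.8 kb in neurospheres). H3K36me2 was absent from Pax3, whose nearest such island was 143 to 171 kb away over the 8 libraries. On Pax7 it took up 1.4 and 0 kb in hippocampus Ctrl and 10.4 and 10 kb in cKO, higher without overlap, as for 17.4% of genes. In neurospheres it took up 0 kb in both Ctrl libraries and 9.6 and 0 kb in cKO.

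Pax1 (chr2:147361925-147393295, plus strand) and Pax9 (chr12:56691767-56712822, plus strand) had H3K27me3 on most of their length in every library. Pax9 was covered over 100% and 93.4% in hippocampus Ctrl and 99.9% and 100% in cKO, and over 89.5% and 79.1% in neurosphere Ctrl and 92.4% and 100% in cKO. Pax1 was covered over 93.3% and 55.7% in hippocampus Ctrl and 91.1% and 64.6% in cKO, and over 89.2% and 85.3% in neurosphere Ctrl and 97.5% and 100% in cKO. Nearly all H2AK119ub1 on Pax1 lay under H3K27me3, 100% in all 16 pairs of hippocampal libraries and 95.4% to 100% in neurospheres. Over all H2AK119ub1 islands the share was 12.0% to 37.2% in hippocampus and 31.4% to 61.0% in neurospheres. Pax1 was not alone in this, as the median share was also 100% at Pax9 in both sources. The lowest medians of the members were 11.4% at Pax4 in hippocampus and 9.49% at Pax8 in neurospheres. H3K27me3 covered a mean of 76.2% of the whole Pax1 span in hippocampus and 93.0% in neurospheres.

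Pax4 (chr6:28442334-28449353, minus strand), the shortest member at 7.02 kb and the poorest in CpG, had short islands that filled its promoter in no library. H3K27me3 covered 58.8% and 0% of its promoter in hippocampus Ctrl and 28.8% and 68.8% in cKO, and 75% and 58.8% in neurosphere Ctrl and 75% and 83.8% in cKO. H2AK119ub1 was at the promoter in 4 of the 8 libraries of the mark, with both values of each group far apart. Where Pax4 had an H3K27me3 island, its density was 0.809 to 1.35 times that of all islands of the library, whereas Pax9 in neurospheres reached 3.71 and 3.60 in Ctrl and 2.69 and 2.51 in cKO.

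The marks were then compared with each other over the gene span, with an exact permutation test of libraries within source and genotype (1296 arrangements, 8 libraries of each mark, adjusted over all 21938 genes). H3K36me2 was lower than H3K27me3 at 6 of the 8 members, and the same call was made for 6.86% of all genes. Pax9 had the widest gap at -94.3 percentage points, followed by Pax2 at -90.5, Pax3 at -89.7, Pax1 at -84.6 and Pax7 at -64.5, each with an adjusted p of 0.0149 by the exact permutation test, whose raw p of 0.00154 is the smallest the arrangements allow. Pax5 differed by -50.6 points (adjusted p = 0.0275, exact permutation test). Pax4 at -31.5 and Pax8 at -16.3 points did not pass (adjusted p = 0.067 and 0.661, exact permutation test). H2AK119ub1 covered less than H3K27me3 on the mean of every member, by 37.5 points at Pax1, 24.2 at Pax2, 38.4 at Pax3 and 36.7 at Pax9, but with 0% of all genes called none of these passed (adjusted p = 0.0674 at the smallest raw p, exact permutation test). Antibody and depth differ between marks along with the mark itself, and libraries of different marks may share the same chromatin.

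The main comparison, cKO against Ctrl, gave no called change at the Pax genes. For each mark and source, islands of the 4 libraries were merged into regions, counts were summed in the regions with an island in every library, and edgeR's quasi-likelihood test was run over all regions at a false discovery rate (FDR) of 0.05. Regions at member promoters numbered 6 for H2AK119ub1 and 7 for H3K27me3 in each source, 1 for H3K36me2 in neurospheres (Pax8) and 0 for hippocampal H3K36me2. For each of these fits 0% of all regions were called, and at an unadjusted p under 0.05 there were 30 of 2750 regions for hippocampal H2AK119ub1, 101 of 6060 for neurosphere H2AK119ub1, 155 of 4387 for hippocampal H3K27me3, 2077 of 11262 for neurosphere H3K27me3 and 736 of 34454 for neurosphere H3K36me2. DESeq2's Wald test called 0, 32, 3, 734 and 83 regions in the same fits. With islands called per library, a fold change joins called length and density.

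Neurosphere H3K27me3 had the lowest fold changes relative to their error. Pax7 had 33179 and 27652 counts in Ctrl against 19539 and 14533 in cKO over a region of 336.4 kb, a log2 fold change of -0.82 (SE 0.218, edgeR FDR = 0.199). Pax2 had 41535 and 34201 counts in Ctrl against 25126 and 28525 in cKO (log2 fold change -0.50, SE 0.132, edgeR FDR = 0.199). For Pax5 the counts were 15557 and 11975 in Ctrl and 9498 and 9610 in cKO (-0.52, SE 0.140, edgeR FDR = 0.199). Pax4 had 752 and 467 counts in Ctrl against 304 and 306 in cKO (-0.96, SE 0.284, edgeR FDR = 0.216). Both cKO libraries were below both Ctrl libraries at these 4 genes before scaling. The same held for counts in all islands, with 13195590 and 13502744 in cKO against 17025504 and 14008986 in Ctrl. The share of all regions that did so was not counted. Pax3 was at -0.25, Pax9 at -0.18 and Pax1 at -0.04. The median of the 7 members was -0.50, against 0.01 over all regions and -0.25 over the 3659 regions at a promoter. An unadjusted p under 0.05 was found at 4 of the 7, against 18.4% of all regions. Without cKO replicate 1, Pax5 and Pax7 were called, among 2409 regions called in all. The Pax5 region also holds the promoter of Zcchc7, 45.4 kb away, and the Pax7 region that of Klhdc7a, 134 kb away.

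**Figure D3:**
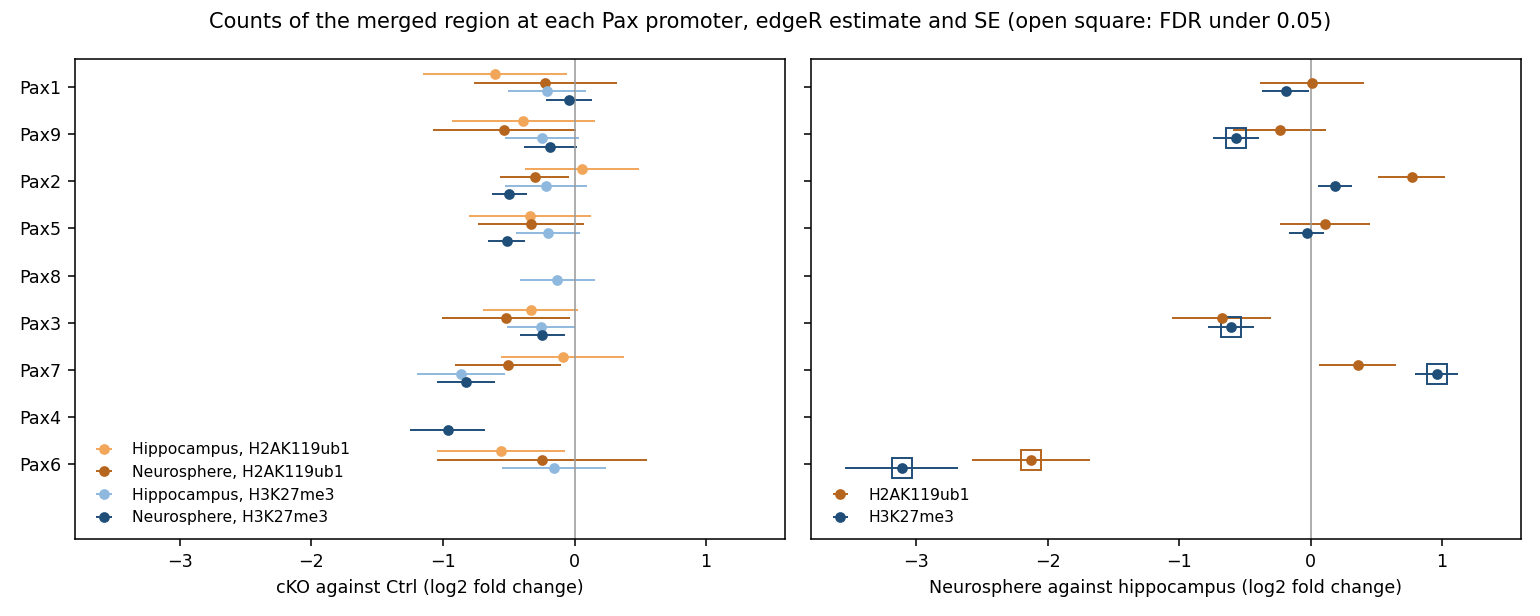
Log2 fold change of region counts at each Pax promoter for H2AK119ub1 and H3K27me3, cKO against Ctrl in each source (left) and neurosphere against hippocampus (right), with bars of 1 standard error, a line at 0 and an open square where the edgeR FDR was under 0.05. On the left the 7 neurosphere H3K27me3 values of the members lie between -0.96 and -0.04 and none passed, and on the right squares mark H3K27me3 at Pax3, Pax7 and Pax9 and both marks at Pax6.

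The other fits gave values of the same sign for most members. In hippocampal H3K27me3 all 7 members were below 0 (median -0.22, all regions -0.02, the 2006 regions at a promoter -0.095), with Pax7 at -0.86 (SE 0.332, edgeR FDR = 0.994), Pax3 at -0.25, Pax9 at -0.25, Pax2 at -0.22, Pax1 at -0.21, Pax5 at -0.20 and Pax8 at -0.13. Before scaling, both cKO libraries were above both Ctrl libraries at all of these but Pax7. Counts in all islands were likewise higher, with 5288967 and 5525016 in cKO against 5117758 and 1681001 in Ctrl. The sign below 0 thus holds for counts after scaling. Without Ctrl replicate 2 the median was -0.016 with 4 of 7 below 0, and with counts per kb it was 0.0019 with 3 of 7. In neurosphere H2AK119ub1 6 of 6 were below 0 (median -0.42, all regions 0.01), from Pax9 at -0.53, Pax3 at -0.52 and Pax7 at -0.51 to Pax5 at -0.33, Pax2 at -0.30 and Pax1 at -0.22. The median was -0.073 with 4 of 6 below 0 without Ctrl replicate 2 and -0.65 without Ctrl replicate 1. Of the neurosphere H2AK119ub1 libraries, Ctrl replicate 1 had the most counts in islands. In hippocampal H2AK119ub1 5 of 6 were below 0 (median -0.34, all regions 0.02), with Pax1 at -0.61, Pax9 at -0.39, Pax5 at -0.34, Pax3 at -0.33, Pax7 at -0.09 and Pax2 at 0.06. Without Ctrl replicate 1 the median was -0.072 with 4 of 6 below 0, and with counts per kb it was 0.0063 with 3 of 6. Neurosphere H3K36me2 at Pax8 had 740 and 599 counts in Ctrl against 433 and 155 in cKO (log2 fold change -0.87, SE 0.480, edgeR FDR = 0.962).

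When the called length of each region was taken out, in a fit of counts per kb added after seeing the data, Pax7 in neurosphere H3K27me3 was called lower in cKO at -0.35 (SE 0.0829, edgeR FDR = 0.0314). In that fit 2.04% of all regions were called lower and 50 of 11262 higher. Pax2 was then at -0.19, Pax4 at -0.29, Pax5 at -0.13, Pax9 at -0.11, Pax3 at -0.07 and Pax1 at 0.06, none of them called (edgeR FDR = 0.317 and 0.374 for Pax2 and Pax4). The fit called 0 members in each other mark and source.

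Density was also read in each library at the promoter, as counts per kb of island. In neurospheres the H3K27me3 density of Pax9 was 223 and 188 counts per kb in Ctrl against 116 and 106 in cKO, that of Pax3 165 and 185 against 99.1 and 103, and that of Pax2 157 and 139 against 101 and 109. All 7 members with an island in every library were lower in both cKO libraries, as were 70.6% of all such genes. Divided by the density over all islands of the same library, 6 of 7 members were still lower without overlap (all but Pax1), against 25.1% of genes. Pax7, for example, was at 2.24 and 2.83 in Ctrl and 1.92 and 1.92 in cKO, whereas Pax5 was close, at 2.30 and 2.33 against 2.05 and 2.30. With only islands of at least 2 kb, the members without overlap were Pax3, Pax4, Pax7 and Pax9. For neurosphere H2AK119ub1, 4 of 6 members (Pax2, Pax3, Pax5 and Pax7) were lower by the same ratio, against 31.3% of genes. In hippocampus the groups overlapped for every member by this ratio in both marks. Without overlap, 2.35% of genes were lower and 24% higher in cKO for hippocampal H3K27me3. For hippocampal H2AK119ub1 it was 6.32% and 9.48%.

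**Figure D4:**
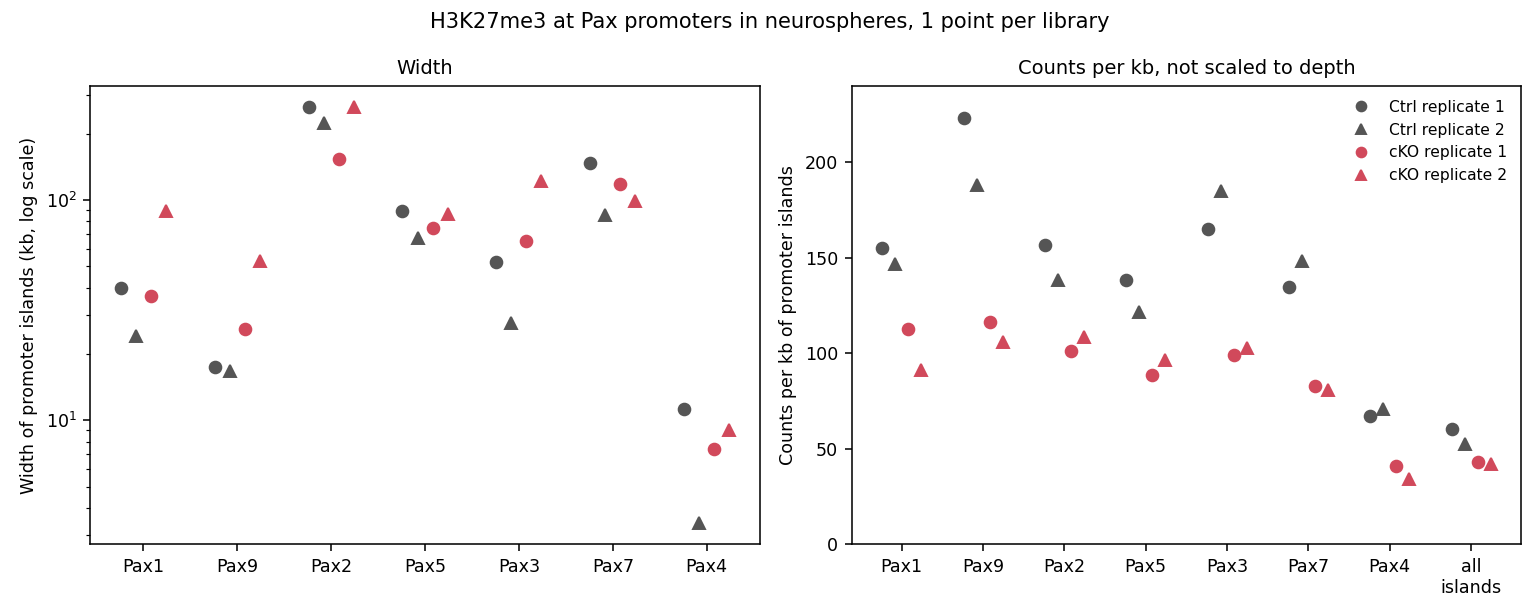
Neurosphere H3K27me3 at the promoters of the 7 Pax genes with an island in every library, as width of the promoter islands (left, kb, log scale) and raw density (right, counts per kb, with all islands of the library for reference), 1 point for each Ctrl and cKO library. Densities are lower in both cKO libraries at every gene and over all islands, as at Pax9 with 223 and 188 against 116 and 106, while widths overlap between genotypes except at Pax3 and Pax9.

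Coverage and width did not follow a single direction. Promoter coverage overlapped between genotypes at all 8 members for both Polycomb marks in each source. The shares of genes lower and higher in cKO without overlap were 1.7% and 2.03% for hippocampal and 7.79% and 4.42% for neurosphere H2AK119ub1. For H3K27me3 they were 2.58% and 11.8% in hippocampus and 13.3% and 8.54% in neurospheres. H3K27me3 filled every member promoter but Pax4 in all hippocampal libraries, and every one but Pax4 and Pax8 in all neurosphere libraries. Promoters filled in all libraries could not differ. The H3K27me3 share of the gene span was higher without overlap in neurosphere cKO at Pax1, Pax8 and Pax9 and lower at Pax7, against 15.1% and 13.4% of genes in these directions. In hippocampus it was higher at Pax3 and Pax8, against 18.9% of genes. H3K27me3 width in neurospheres was higher at Pax3 and Pax9, against 28.7% of genes. In hippocampus it was higher at Pax1 and Pax2, against 26.6% of genes, and lower at Pax7, against 4.53%. For neurosphere H2AK119ub1 the share of the span was lower at Pax2 and higher at Pax9, against 7.09% and 8.07% of genes, and width was lower at Pax1, against 23.4%. With 2 libraries against 2, an exact permutation test cannot give a p below 0.333.

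Neurospheres and hippocampus were compared in a fit with genotype as a term (4 libraries each). For H3K27me3, 42.5% of 2373 regions were called and 3 of 6 members. Pax7 was higher in neurospheres (log2 fold change 0.96, SE 0.165, edgeR FDR = 0.00166), while Pax3 (-0.60, SE 0.175, edgeR FDR = 0.0206) and Pax9 (-0.57, SE 0.175, edgeR FDR = 0.0261) were lower. Before scaling, counts at Pax3 were 10288 to 15970 in neurospheres and 4899 to 9693 in hippocampus. At Pax9 they were 7425 to 10636 and 3052 to 6883. Promoter density over that of all islands of the library was also higher in neurospheres at both genes. Its mean was 2.75 against 1.73 at Pax3 and 3.13 against 1.80 at Pax9. The lower values of Pax3 and Pax9 thus hold for counts after scaling. Pax2 at 0.19, Pax5 at -0.03 and Pax1 at -0.19 were not called. The calls of Pax3 and Pax9 were lost without neurosphere Ctrl replicate 1, Ctrl replicate 2 or cKO replicate 1, and Pax7 alone remained. The Pax9 region also holds the promoter of Nkx2-9. For H2AK119ub1, 20.5% of 1555 regions were called and 0 of 6 members, with Pax2 nearest at 0.77 (SE 0.257, edgeR FDR = 0.0513), Pax7 at 0.36, Pax5 at 0.11, Pax1 at 0.01, Pax9 at -0.23 and Pax3 at -0.68. Pax6 fell in neurospheres in both marks, by 3.11 for H3K27me3 (edgeR FDR = 0.000566) and by 2.12 for H2AK119ub1 (edgeR FDR = 0.00794) on the log2 scale. For H3K36me2, no member had a region in all 8 libraries. Pax6 had this mark at its promoter in 3 neurosphere libraries, as did Pax8.

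Partner and target genes of the Pax programmes were taken as 7 lists with 51 genes: Eya, Dach and sine oculis homeobox partners, midbrain-hindbrain partners, neural crest and muscle genes, B cell genes, thyroid and kidney genes, pancreatic islet genes, and sclerotome and tooth genes. In the cKO against Ctrl fits, 0 of the 36 genes with a region in neurosphere H3K27me3 were called (median -0.34), nor any of 34 in hippocampal H3K27me3 (median -0.27), 31 in neurosphere H2AK119ub1 (median -0.21) and 27 in hippocampal H2AK119ub1 (median -0.26). The H3K27me3 share of the gene span was lower without overlap in neurosphere cKO at 4 of 7 midbrain-hindbrain partners of Pax2 and Pax5, against 13.4% of all genes. Gbx2, a homeobox gene of the anterior hindbrain, had 100% of its span covered in each Ctrl library but 50.4% and 0% in cKO. En2, an engrailed gene of this boundary, was at 100% in both Ctrl libraries and 55.6% and 0% in cKO, and Fgf8, its signal, at 100% in both and 94.9% and 0%. Here cKO replicate 2, with its fewer and wider islands, was at 0% for all 3 genes, although the same library covered 100% of Pax2.

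In the comparison of sources 10 of 33 list genes were called lower and 3 higher in neurospheres for H3K27me3 (median -0.10), and over all regions 21.2% were lower and 21.3% higher. Of the midbrain-hindbrain partners Gbx2 fell by 1.502 (SE 0.227, edgeR FDR = 0.000899), Wnt1 by 1.16 and Otx2 by 0.84 on the log2 scale. Nkx6-1, a regulator of beta cells and ventral neural tube, fell by 1.22 and Pdx1, of the pancreas, by 0.91. Of the other genes called lower, Meox2 was at -1.14, Bmp4 at -1.01, Nkx2-1 at -0.99, Ebf1 at -0.89 and Six2 at -0.64. Eya2, a coactivator of sine oculis homeobox proteins, rose by 1.81 (SE 0.250, edgeR FDR = 0.000595), Blk by 1.07 and Neurog3 by 0.89. The regions of Wnt1, Pdx1, Bmp4, Nkx2-1, Six2, Blk and Neurog3 hold other promoters too. For H2AK119ub1, 3 of 26 were lower (Ebf1, Nkx2-2 and Nkx6-1) and 1 higher (Blk, whose region holds other genes too), and over all regions 11.2% were lower and 9.32% higher.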

How the data were processed

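H2AK119ub1, H3K27me3 and H3K36me2 ChIP-seq was done on hippocampus and neurospheres, with 2 Ctrl and 2 cKO libraries per mark and source. The 12 inputs of the 36 samples and the ATAC-seq of the study were not used here. Per the labels and the study's methods, reads were trimmed with cutadapt and aligned to mm10 with Bowtie2 2.4.5, duplicates were removed with samtools, and SICER (version not given in the sources used here) called islands per library against input, with windows of 200 bp, gaps of 600 bp and an FDR of 0.01. The authors deposited island positions with raw counts of reads, not normalised. Counts in islands are not the sequencing depth, and total reads were not analysed here. Counts carry no molecular identifiers, so the spread between libraries was used as the error.

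From these files, gene spans and TSS of GENCODE vM21 (mm10) were intersected with islands in Python 3.11.15 (numpy 2.4.6, pandas 2.3.3, figures with matplotlib 3.10.9). Island width and density were summed over islands that overlapped the TSS by 2 kb on each side. Region counts were fitted with edgeR 4.0.16 (R 4.3.3, TMM, Benjamini-Hochberg adjustment), and DESeq2 1.42.0 was an alternative. Called regions need an island in all libraries of the fit, so a member without one has no fold change. Covered shares were tested by exact permutation of libraries, two-sided. Groups and replicate numbers came from the sample labels. Code was tested on simulated data. The alternatives were other size factors, a Wald test, minimum counts and widths, equal covered length per library, other windows, a replicate term, leaving out each library and, added after seeing the data, counts per kb of called length.

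The members, gene lists and tests were chosen with earlier results of these data known. All members with a region or island in a comparison were to be named there. A list gene was named where its region passed the FDR in that fit, otherwise at most 3 per comparison with the largest coverage difference without overlap, and neighbours where they shared a region. Gene likeness was the mean absolute difference of promoter coverage over the 24 libraries. Values of some list genes are not reported here.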

Additional observations from a re-analysis of the deposited data

Results flagged for a closer look

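Raw H3K27me3 density at the promoter moved in opposite directions in the sources at 4 members. Every hippocampal cKO library was above both Ctrl libraries and every neurosphere cKO library below them at Pax2, Pax3, Pax5 and Pax9. The cKO minus Ctrl difference in neurospheres less that in hippocampus was -64.6 counts per kb at Pax2, -88.3 at Pax3, -54.1 at Pax5 and -106 at Pax9. This difference between sources was not tested. Raw density moved the same way in most genes with a promoter island in all 4 libraries, higher in cKO at 78.2% of 1833 genes in hippocampus and lower at 70.6% of 3401 genes in neurospheres, and their part in these values was not tested. Divided by the density of all islands of the library, the hippocampal groups overlapped at all 4 genes.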

How the results depend on the processing

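Of 217 alternative values for the comparisons, 204 kept their direction and their side of the threshold or stayed within the spread between replicates, and 179 of 194 did so for single genes. Counts of members were taken as kept where they were equal, as with 0 against 0, or where the larger was moderately above the smaller. Coverage, width and density were taken as kept within the spread between replicates, whatever their sign. Some values could not move when libraries were left out. The median promoter coverage of the members was 100% in every H3K27me3 library and in every neurosphere H2AK119ub1 library. Leaving out libraries in turn gave 0 to 1 members called for neurosphere H2AK119ub1, 0 to 2 for neurosphere H3K27me3 (against 1 with counts per kb), and for neurosphere against hippocampus 0 to 1 (H2AK119ub1) and 1 to 3 (H3K27me3). A lone library left in a group was assumed to vary like the others. Pax2 was the 1 member called for H2AK119ub1 between sources with DESeq2 size factors, at least 50 counts or islands of at least 2 kb. With equal covered length, where the densest islands were kept until libraries covered as much as the least covered, the cKO minus Ctrl difference of the per-library median gene coverage of the members was -1.35 points for neurosphere H2AK119ub1 (9.94 as deposited), and H3K36me2 minus H3K27me3 was -64.9 points (-74.5 as deposited). Values of opposite sign were Pax1 in neurosphere H3K27me3 at 0.0099 with at least 50 counts, 0.062 with islands of at least 2 kb, 0.063 with counts per kb and -0.16 to 0.12 over the libraries left out in turn (above 0 without cKO replicate 1), Pax9 at -0.36 to 0.012 likewise, and Pax5 between sources at 0.0041 with at least 50 counts. The cause was not tested.

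The replicate block, the replicate number as a term, called 1 member for hippocampal H3K27me3 (Pax7 at -0.86, edgeR FDR = 0.0209) and 9 regions in all against 0, and changed no other call of a member. Labels do not say that equal numbers share animals. Deviations of same-numbered libraries correlated between -0.322 and 0.327, and with 2 pairs in each set this cannot decide whether the numbers pair the libraries. In hippocampal H2AK119ub1 the called length followed the replicate number in both genotypes.

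Counts of all regions called differed from 0 with the Wald test (0 to 734 over the genotype fits), without neurosphere Ctrl replicate 1 for H2AK119ub1 (671, against 1 without Ctrl replicate 2 and 1 without cKO replicate 2), without cKO replicate 1 for hippocampal H3K27me3 (23), neurosphere H3K27me3 (2409) and neurosphere H3K36me2 (2039), and without cKO replicate 2 (4 for hippocampal and 96 for neurosphere H3K27me3). Between sources, leaving out libraries gave 156 to 407 H2AK119ub1 regions (319 in full), 719 to 1017 H3K27me3 regions (1008 in full) and 65 to 1487 H3K36me2 regions (501 in full), and the Wald test 1051 for H3K36me2. Hippocampal H2AK119ub1 is limited by the small called length of its replicates 1.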

Other observations

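Outside the family, the 5 genes whose promoter coverage was most like the mean of the 8 Pax genes over the 24 libraries were Vgll2, with a mean absolute difference of 6.86 percentage points, Thsd4 (6.95), Prdm1 (7.15), Pou3f1 (7.43) and Bnc2 (7.48). Among the members themselves Pax2 was nearest to that mean at 8.29 points, whereas Pax4 lay 26.3 and Pax8 31.4 points away, further than Pax6 at 24.8.

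Other list genes had wide differences between genotypes without overlap. Sox10, which acts in neural crest downstream of Pax3, had no H2AK119ub1 in neurosphere Ctrl and 60.9% and 100% in cKO. En2 carried H2AK119ub1 over 100% of its span in both neurosphere Ctrl libraries and 0% and 49.4% in cKO. Emx1, a marker of the dorsal telencephalon chosen after its values were seen, was covered by H3K27me3 over 100% and 64.4% in neurosphere Ctrl and 60.9% and 0% in cKO. These values have no replicate check beyond the 2 libraries of each group.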
